A study of Mus musculus with 6 samples.

Results

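The RNA of FGF signalling genes in the embryonic head was read from 41 listed genes, of which 40 were measured. They were the FGF ligands, their receptors, and inhibitors and transcription factors of the pathway. A gene counted as measured where the platform annotation gave a probe set its symbol and no other, and where a gene had 2 such probe sets the one with the higher mean intensity was taken. The 40 genes stand among 21789 probe sets tested, which cover 19938 genes. The adapter Frs2 was not analysed here. RNA came from heads of C57BL/6 embryos at E8.5, and each sample was a pool of 4 heads hybridized to an Affymetrix mouse Gene 1.0 ST array. Of the 6 pools, 3 were Jarid1b heterozygotes and 3 Jarid1b knockouts. All embryos were untreated. The knockouts carry a constitutive deletion, made with a Cmv-cre transgene, in both alleles of Jarid1b, which encodes a demethylase of H3K4me2 and H3K4me3. The heterozygotes used as controls carry the same deletion in 1 allele, so no pool was wild type, and the deletion was inherited and not restricted to a cell type.

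FGFs are secreted proteins that bind receptor tyrosine kinases with heparan sulfate as a cofactor. The bound receptor recruits adapters, RAS is loaded, and the RAF, MEK and ERK kinases pass the signal to ETS transcription factors. The pathway has its own brakes, among them the Sprouty and Spred proteins, the ERK phosphatase Dusp6 and the membrane protein Il17rd. It induces several of them. In the early head, Fgf8 and its relatives are made at the boundary of midbrain and hindbrain and at the anterior neural ridge, and they pattern the neighbouring neural tube. Fgf3 and Fgf10 act in the hindbrain, the ear placode and the pharyngeal region.

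Jarid1b, listed on the array as Kdm5b, checked the labels. Its log2 intensity was 9.17, 9.12 and 9.16 in the heterozygote pools and 7.63, 7.47 and 7.71 in the knockout pools. It fell by 1.55 on the log2 scale (standard error 0.07, limma adjusted p = 6.29e-04), and it was the only called probe set, or 0.00459% of those tested. Among markers of the head, Otx2, a factor of forebrain and midbrain, had a mean log2 intensity of 9.97 in heterozygotes and 9.89 in knockouts, and Sox2, a factor of neural progenitors, lay between 9.21 and 9.41. The tail bud genes Cdx2, Tbx6 and Msgn1 had values between 5.29 and 5.91, and since each set of probes has its own response, these levels do not say how much tail tissue the pools held. Of 5 measured markers of caudal mesoderm and tail bud, 4 had a positive log2 fold change and 1 a negative one. Tbx6 was the highest at 0.23 (limma adjusted p = 0.391). The summed linear intensity of the 5 was 243.8 to 253.8 in heterozygote pools and 260.8 to 267.9 in knockout pools. The cause was not tested. The pools did not hold the same mix of sexes. Uty, a gene of the Y chromosome, lay at 5.77 in replicates 1 and 3 of the heterozygotes, at 7.60 in replicate 2 and between 7.17 and 7.48 in knockouts. Knockout replicate 2 was rich in the embryonic globin Hba-x (10.09, against 6.18 to 7.78 elsewhere), and knockout replicate 3 was low in Apom of the visceral endoderm (7.35, against 8.78 to 9.10 elsewhere). In such bulk samples a lower value can mean fewer cells of a type or less RNA per cell, and these cannot be told apart.

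No FGF ligand, receptor or feedback gene passed the test between genotypes. The smallest adjusted p among the 40 genes was 0.406 (limma, Benjamini-Hochberg over all 21789 probe sets). Log2 fold changes, knockout minus heterozygote, ran from -0.16 for Fgf5 to 0.22 for Fgf23, so the widest difference in either direction was 1.17-fold. The 95% confidence interval of every one of the 40 genes excluded a change of 1.5-fold either way, and that of 26 genes excluded 1.2-fold. With the unadjusted p, 4 genes lay higher and 1 lower in knockouts at the 0.05 threshold, or 10% and 2.5% of the 40, where 5.97% and 4.66% of all probe sets were. These were the ligands Fgf1, Fgf10, Fgf21 and Fgf23 and the receptor Fgfr2.

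**Figure D1:**
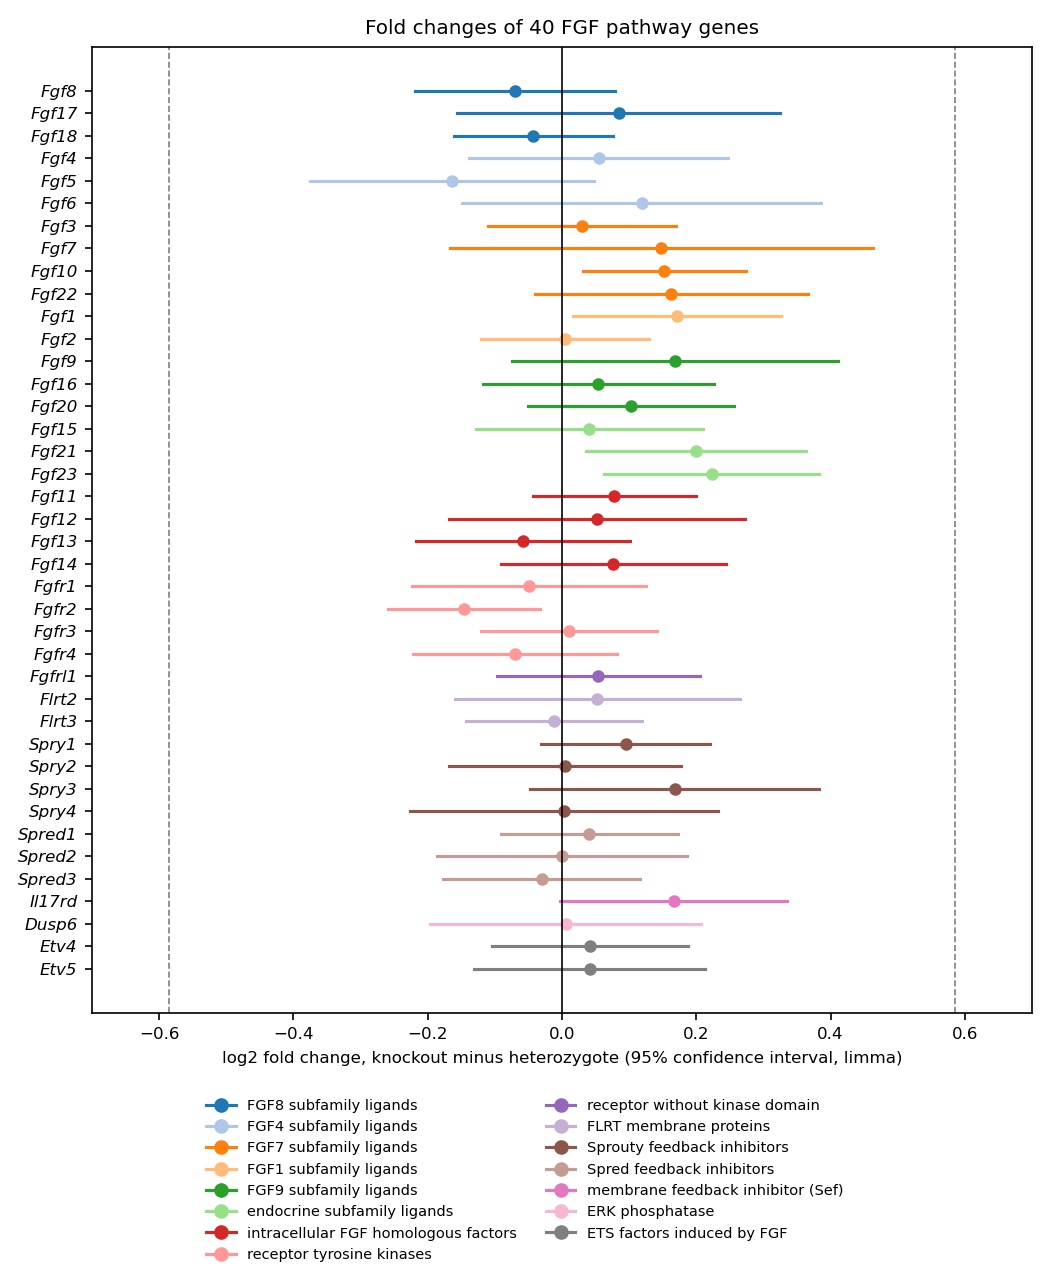
Log2 fold change (knockout minus heterozygote, horizontal axis) of the 40 measured genes, coloured by role, with 95% confidence intervals from limma and dashed lines at a change of 1.5-fold. All points lie between -0.16 and 0.22, and no interval reaches a dashed line.

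Across the 40 genes, 30 values leaned toward the knockouts and 10 toward the heterozygotes. The median log2 fold change was 0.047, against a median of -0.00072 over all probe sets. The groups of 3 pools did not overlap for 8 genes, or 20% of the 40, where 17.1% of all probe sets had groups that did not overlap. Of these, 7 lay higher in knockouts (17.5%, against 8.03% of all probe sets) and 1 lower (2.5%, against 9.03%). Intensity moved with the direction of change over the whole array. In the dimmest tertile, 12% of probe sets had all knockout pools above all heterozygote pools and 2.05% the reverse. In the middle tertile these shares were 8.99% and 8.22%, and in the brightest 3.06% and 16.8%. The 9 FGF genes of the dimmest tertile all had positive values, with a median of 0.12, against a median of 0.056 over all 7263 probe sets there. The 11 genes of the brightest tertile had a median of 0.0053, with 7 positive and 4 negative, against -0.035 and 2161 positive of 7263. All probe sets were also cut by mean intensity into 20 bins of 1089 or 1090. Of the 40 genes, 30 lay above the median of their bin and 33 lay inside its 10th to 90th percentile. The 7 outside are 17.5% of the 40, and by definition that range leaves out 20% of all probe sets. Above that range were Fgf10, Fgf23, Spry1, Spry3 and Il17rd, and below it were Fgf5 and Fgfr2. After quantile normalization the median of the 40 genes was 0.050 with 31 positive, against 0.00092 over all probe sets. With cyclic loess normalization it was 0.045 with 30 positive, against -0.00060. The part of intensity in the direction of single FGF genes was not tested.

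**Figure D2:**
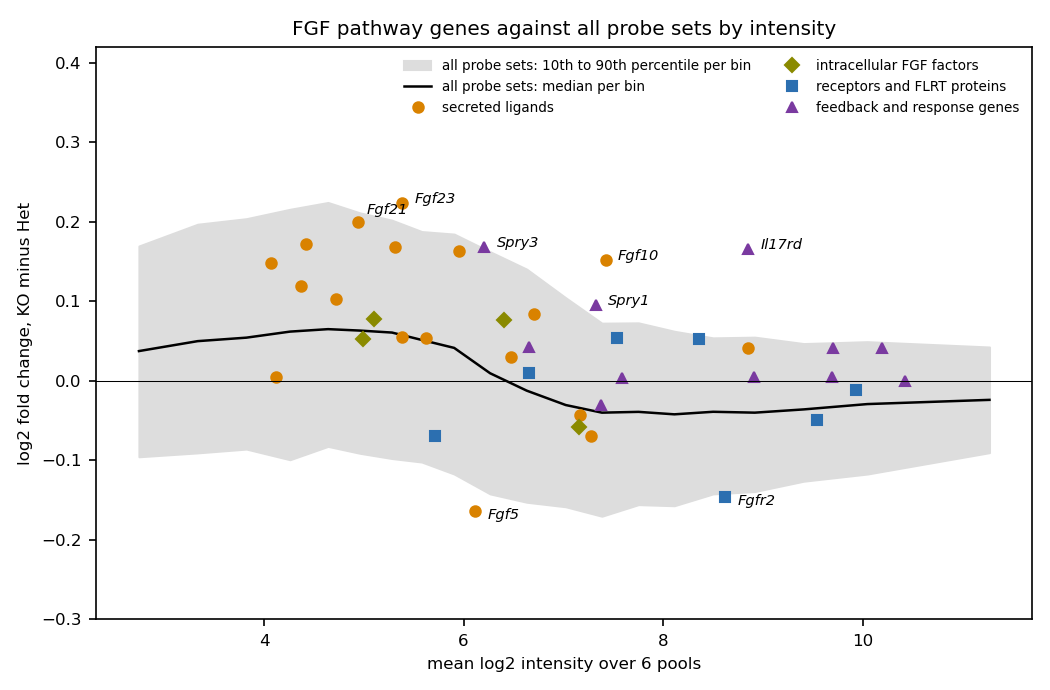
Log2 fold change (vertical axis) against mean log2 intensity over the 6 pools (horizontal axis) for the 40 genes, marked by role, with the median (black line) and the 10th to 90th percentile (gray) of all 21789 probe sets in 20 bins of intensity. Dim probe sets lie above 0 and bright ones below it as a whole, and 33 of the 40 genes lie inside the gray band.

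The lean toward positive values also moved with the sex mix of the pools. With the mean level of the Y-linked genes as a covariate, 20 of the 40 genes had a positive value and the median became -0.0020. Over all probe sets the median of that fit was -0.0077. Y-linked levels differed between the groups, since 2 of 3 heterozygote pools were low in them, and with 6 pools the effect of genotype is only partly separate from that of sex mix. The median was 0.027, 0.064 and 0.040 without heterozygote replicates 1, 2 and 3 in turn. It was 0.025, 0.048 and 0.055 without knockout replicates 1, 2 and 3 in turn. The part of sex mix was not tested further.

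Promoter sequence is shown for 4 genes, because Jarid1b acts on a histone mark of promoters that follows CG-rich sequence. Fgfr2 was the receptor with groups apart, Fgf10 the ligand with the widest gap between its groups (0.0781), Fgf23 had the widest fold change, and Dusp6 is an established response gene whose group means differed by 0.0053. Each line gives the 250 bases before the start of transcription, 5′ to 3′ on the strand of the gene, with every CG dinucleotide in capitals. The sequences come from RefSeq for GRCm38.p6, at chr7:130266809-130267058 (minus strand) for Fgfr2, chr13:118714449-118714698 (plus) for Fgf10, chr6:127072652-127072901 (plus) for Fgf23 and chr10:99262981-99263230 (plus) for Dusp6.
Fgfr2: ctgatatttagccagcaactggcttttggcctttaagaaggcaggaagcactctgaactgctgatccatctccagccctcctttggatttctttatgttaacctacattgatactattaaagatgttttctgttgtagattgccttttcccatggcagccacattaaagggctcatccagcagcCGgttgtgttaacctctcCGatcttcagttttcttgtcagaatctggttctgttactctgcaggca
Fgf10: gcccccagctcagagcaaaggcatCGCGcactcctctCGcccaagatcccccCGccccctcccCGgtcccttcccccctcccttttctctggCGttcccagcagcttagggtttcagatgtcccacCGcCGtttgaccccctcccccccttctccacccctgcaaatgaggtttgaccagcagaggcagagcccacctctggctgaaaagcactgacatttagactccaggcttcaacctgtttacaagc
Fgf23: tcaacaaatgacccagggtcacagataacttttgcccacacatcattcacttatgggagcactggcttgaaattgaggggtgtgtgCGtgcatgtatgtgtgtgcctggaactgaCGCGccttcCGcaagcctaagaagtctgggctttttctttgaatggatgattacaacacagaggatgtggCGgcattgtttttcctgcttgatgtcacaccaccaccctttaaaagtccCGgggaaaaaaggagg
Dusp6: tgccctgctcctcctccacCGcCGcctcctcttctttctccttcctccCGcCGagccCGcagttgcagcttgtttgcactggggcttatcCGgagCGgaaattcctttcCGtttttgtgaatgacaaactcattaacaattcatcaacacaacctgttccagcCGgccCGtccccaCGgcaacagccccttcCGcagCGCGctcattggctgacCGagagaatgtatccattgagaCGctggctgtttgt
The windows held 2 CG dinucleotides for Fgfr2, 8 for Fgf10, 6 for Fgf23 and 16 for Dusp6. Such a window was listed for 30 of the 40 genes. Where a gene had several, that with the most CG was taken, and other starts are not covered. Whether the window listed for Fgfr2 lies at the start used in the head was not tested. The 30 windows held between 2 (Fgfr2) and 37 (Fgf18) CG dinucleotides, with a median of 13.5, against a median of 6 over 27025 genes, and 63.3% of them held 10 or more, against 40.2% of all genes. The 19 genes with 10 or more CG had a median log2 fold change of 0.04, with 14 positive. The 11 genes with fewer had a median of 0.08, with 8 positive, and 4 of these 11 lay in the dimmest tertile, against 3 of the 19. The ETS binding sequence CCGGAAGT, itself holding a CG, was searched on both strands. Here every listed window of a gene was searched, not only that with the most CG. It was found for 1 of the 30 genes, Fgfrl1, and for 3.23% of all genes.

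Among 18 secreted ligands, 15 log2 fold changes were above 0 and 3 below it, with a median of 0.09. Of these 18, 7 lay in the dimmest tertile of intensity and 1, Fgf15, in the brightest. The FGF8 subfamily, which signals from the midbrain-hindbrain boundary and the anterior neural ridge, showed no difference beyond the spread between pools. Fgf8 had a log2 intensity of 7.20, 7.39 and 7.33 in heterozygote pools and 7.26, 7.20 and 7.25 in knockout pools. The log2 fold change of -0.07 had a 95% interval reaching from -0.22 to 0.08 (limma adjusted p = 0.728). All knockout values lay within the range of the heterozygotes or at its lower edge.
Fgf17, made in the same boundary region, was at 6.58, 6.69 and 6.73 in heterozygotes and at 6.52, 6.82 and 6.91 in knockouts. Its log2 fold change of 0.08 (interval from -0.16 to 0.33) hides a wide spread among the knockouts, where replicate 1 was the lowest and replicate 3 the highest of all 6 pools, and without knockout replicate 1 it was 0.20 (limma adjusted p = 0.407). Fgf18, the last of this subfamily, was the steadiest of the 40 genes. It was at 7.22, 7.15 and 7.19 in heterozygotes and at 7.15, 7.13 and 7.15 in knockouts, a range of 0.09 over the 6 pools.

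Ligands of the FGF7 subfamily, which signal mainly from mesenchyme to epithelium, had 4 positive values of 4. Fgf10, the ligand that starts the budding of many organs, was at 7.32, 7.39 and 7.32 in heterozygotes and at 7.47, 7.52 and 7.51 in knockouts. Every knockout pool lay above every heterozygote pool. On the log2 scale the fold change was 0.15, with a standard error of 0.05 and an interval from 0.03 to 0.27 (limma unadjusted p = 0.0203, adjusted p = 0.413). It was 0.20 after quantile normalization and 0.12 with the Y-linked covariate. Fgf10 lay 0.19 above the median of probe sets of its intensity. Fgf22 was at 5.92, 5.93 and 5.76 in heterozygotes and at 5.95, 5.94 and 6.20 in knockouts, so that its groups were apart by a narrow margin and knockout replicate 3 stood above the rest. Fgf3, an inducer of the ear placode, was at 6.44, 6.53 and 6.41 in heterozygotes and at 6.51, 6.54 and 6.42 in knockouts. Its groups overlapped nearly in full, with a log2 fold change of 0.03 (interval from -0.11 to 0.17). Fgf7 had the widest range over the pools, 0.56, with its highest value in heterozygote replicate 2 and its lowest in heterozygote replicate 3, and its difference of 0.15 on the log2 scale had an interval from -0.17 to 0.46. Without heterozygote replicate 2 the value for Fgf7 was 0.31 (limma adjusted p = 0.525), and with the level of Y-linked genes as a covariate it was -0.10.

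The endocrine subfamily, whose adult members circulate as hormones, held the ligands with the widest fold changes. Fgf15 is the member known for its role in the embryonic neural tube, and it was at 8.73, 8.87 and 8.90 in heterozygotes and at 8.97, 8.78 and 8.87 in knockouts, so that the groups overlapped. The log2 fold change was 0.04 (interval from -0.13 to 0.21). Fgf23, a hormone of phosphate balance in the adult, was at 5.30, 5.25 and 5.27 in heterozygotes and at 5.56, 5.36 and 5.57 in knockouts. Its groups were apart, and knockout replicate 2 lay nearer to the heterozygotes than to the other knockouts. The log2 fold change was 0.22 with a standard error of 0.07 and an interval from 0.06 to 0.38 (limma unadjusted p = 0.0126, adjusted p = 0.406). Fgf21, a hormone of fasting in the adult, was at 4.89, 4.90 and 4.73 in heterozygotes and at 5.02, 4.97 and 5.13 in knockouts. The groups did not overlap, and the log2 fold change was 0.20 (interval from 0.04 to 0.36, limma adjusted p = 0.416). Fgf21 lay in the dimmest tertile and Fgf23 just above it, where probe sets as a whole leaned toward higher values in knockouts, and the median of probe sets of similar intensity was 0.06 for each.

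Among the other ligands, Fgf1 belonged to the dimmest tertile as well. It was at 4.37, 4.37 and 4.26 in heterozygotes and at 4.41, 4.51 and 4.59 in knockouts, with a log2 fold change of 0.17 (interval from 0.02 to 0.33, limma adjusted p = 0.438). The groups were apart by 0.04, and the value was 0.11 after quantile normalization. Fgf2 was at a log2 fold change of 0.0044. Fgf5, a ligand of the epiblast, had the lowest fold change of the 40 genes. It was at 6.10, 6.27 and 6.21 in heterozygotes and at 6.22, 5.96 and 5.91 in knockouts. Knockout replicate 1 lay among the heterozygotes while the other knockouts lay below them, and the log2 fold change of -0.16 (interval from -0.38 to 0.05) became -0.26 without that pool (limma adjusted p = 0.395). The ligands Fgf4, Fgf6, Fgf9, Fgf16 and Fgf20 had log2 fold changes from 0.05 to 0.17 with overlapping groups. The intracellular FGF homologous factors bind sodium channels and are not secreted. Of these, Fgf11, Fgf12 and Fgf14 had values from 0.05 to 0.08 and Fgf13 was at -0.06. Fgf11 alone had groups apart, at 5.06, 5.10 and 5.04 in heterozygotes and 5.18, 5.13 and 5.12 in knockouts.

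**Figure D3:**
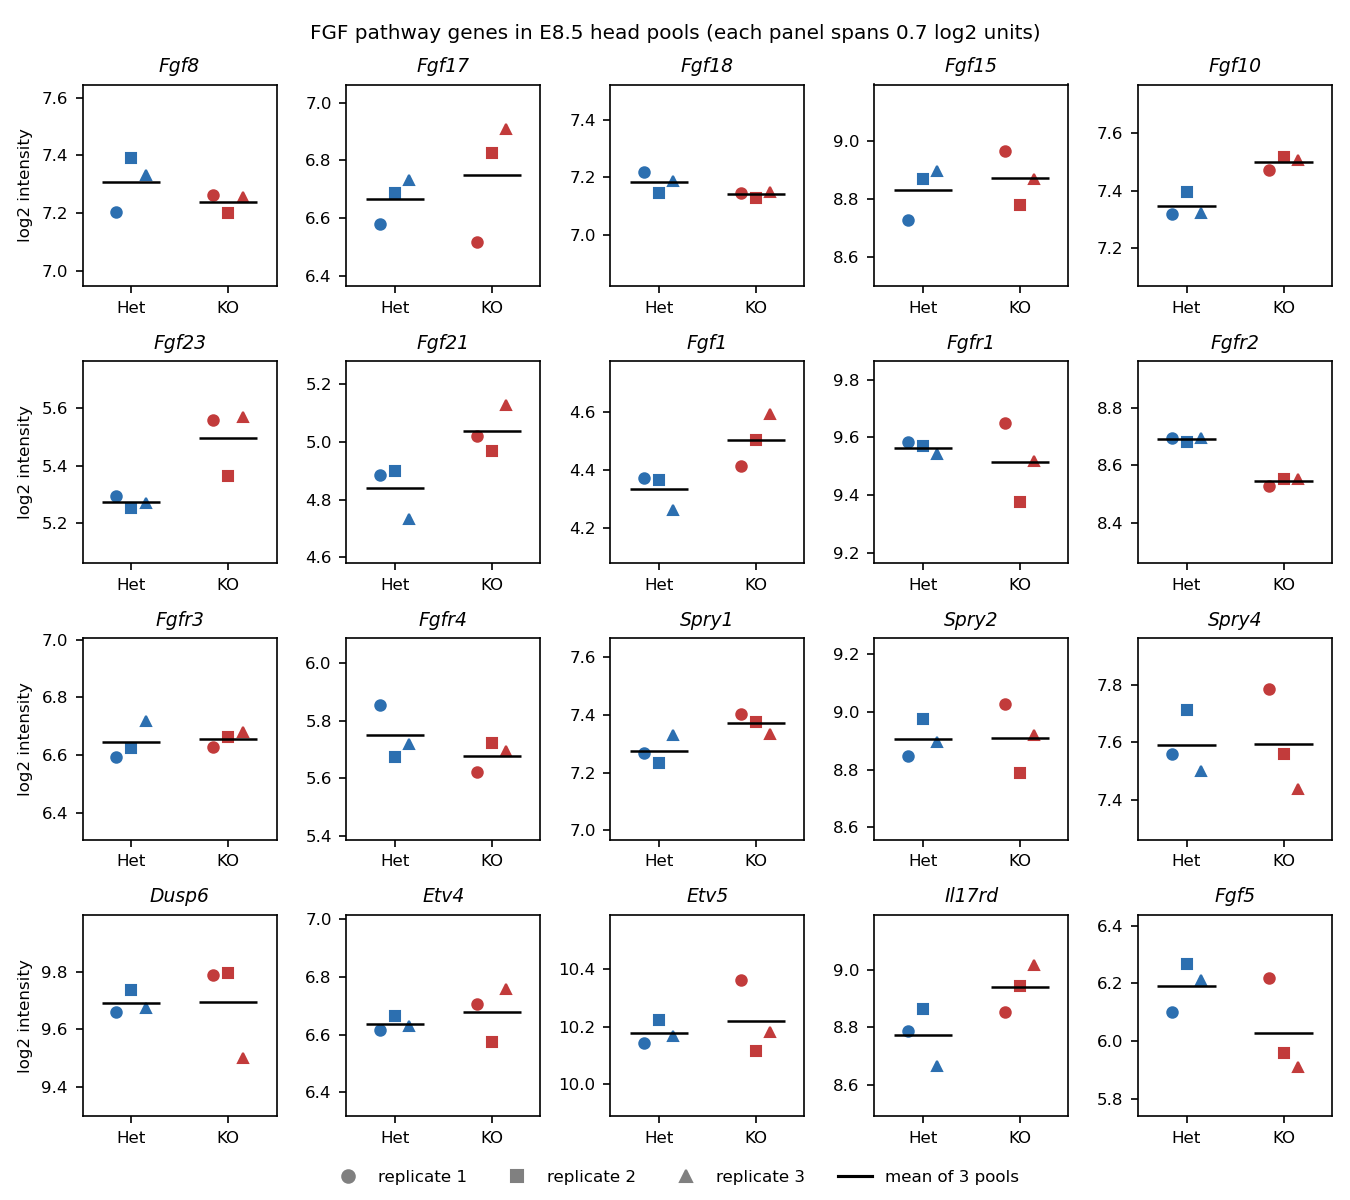
Log2 intensity (vertical axis, 0.7 units in every panel) of 20 genes in each pool, heterozygotes in blue and knockouts in red, with a symbol for each replicate and the mean of 3 pools in black. The groups of Fgf10, Fgf23, Fgf21, Fgf1, Fgfr2 and Spry1 are apart, and those of the other 14 genes overlap.

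Of the 4 receptor kinases, 3 had a negative value and Fgfr2 was the one with groups apart. Fgfr2, the receptor of Fgf10 and of the rest of the FGF7 subfamily in its epithelial splice form, was at 8.69, 8.68 and 8.69 in heterozygotes and at 8.53, 8.55 and 8.55 in knockouts. Both groups were tight, and each knockout pool lay below each heterozygote pool. The log2 fold change was -0.15 with a standard error of 0.05 and an interval from -0.26 to -0.03 (limma unadjusted p = 0.0182, adjusted p = 0.413). It shrank to -0.10 after quantile or cyclic loess normalization. In the brightest tertile, to which Fgfr2 belongs, 16.8% of probe sets had all knockout pools below all heterozygote pools. The 6 genes listed as markers of the surface ectoderm, an epithelium that carries Fgfr2, also had lower means in knockouts. Whether their signal came from this epithelium alone was not tested. The log2 fold change was below 0 for 6 of 6 such markers, of which 5 lie in the brightest tertile, where 5102 of 7263 probe sets were below 0. The epithelial cadherin Cdh1 was at -0.22, Esrp1, a splicing factor that promotes the epithelial form of Fgfr2, at -0.21, the keratins Krt18 and Krt8 at -0.20 and -0.12, and Trp63 and Epcam at -0.08 and -0.05. Their summed linear intensity was 6586 to 6836 in heterozygote pools and 5589 to 6227 in knockout pools. It was lowest in knockout replicate 3, the pool that was also the lowest for 6 of 6 markers of visceral endoderm and 6 of 6 of endothelium, whereas Fgfr2 was lowest in knockout replicate 1. The adjusted test in limma called none of the 6. An unadjusted p under 0.05 was found for 3, Cdh1, Krt18 and Esrp1, all in the brightest tertile, where 487 of 7263 probe sets were lower at that threshold. The part of the epithelium in the value of Fgfr2 was not tested, and the probe set does not separate the splice forms.
Fgfr1, the main receptor of neural ectoderm and mesoderm, was at 9.58, 9.57 and 9.54 in heterozygotes and at 9.65, 9.38 and 9.52 in knockouts. The knockouts lay on both sides of the heterozygotes, and the log2 fold change was -0.05 (interval from -0.22 to 0.13). Fgfr3 was at 6.59, 6.63 and 6.72 in heterozygotes and at 6.63, 6.66 and 6.68 in knockouts, with a log2 fold change of 0.01 (interval from -0.12 to 0.14). Its knockout values fell inside the heterozygote range. Fgfr4 was at 5.85, 5.68 and 5.72 in heterozygotes and at 5.62, 5.72 and 5.69 in knockouts, a log2 fold change of -0.07 that rested largely on heterozygote replicate 1 and was -0.02 without it. Fgfrl1, which binds FGFs but has no kinase domain, had a value of 0.05. The FLRT proteins, membrane partners of the receptors, were at 0.05 for Flrt2 and -0.01 for Flrt3.

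None of the 11 feedback and response genes had an unadjusted p under 0.05. These are array signals for RNA, and the activity of the pathway itself was not measured. Their log2 fold changes ran from -0.03 for Spred3 to 0.17 for Spry3, with 9 positive, 2 negative and a median of 0.04. Dusp6, the ERK phosphatase that follows FGF signalling closely, was at 9.66, 9.74 and 9.67 in heterozygotes and at 9.79, 9.80 and 9.50 in knockouts. Its group means were close, with a log2 fold change of 0.0053 and an interval from -0.20 to 0.21. Knockout replicate 3 lay below every other pool, and without it the value was 0.10 (limma adjusted p = 0.670). The ETS factors induced by FGF gave similar values. Etv4 was at 6.62, 6.66 and 6.63 in heterozygotes and at 6.71, 6.58 and 6.76 in knockouts, and Etv5 at 10.15, 10.22 and 10.17 and at 10.36, 10.11 and 10.18. Each had a log2 fold change of 0.04, and a second probe set of Etv5 gave 0.05.
The Sprouty proteins block the pathway at the level of RAS and RAF. Spry1 was at 7.27, 7.23 and 7.33 in heterozygotes and at 7.40, 7.38 and 7.33 in knockouts, and its groups were apart by 0.0056. Its log2 fold change was 0.09, with an interval from -0.03 to 0.22 (limma adjusted p = 0.567). Spry2 was at 8.85, 8.98 and 8.90 in heterozygotes and at 9.03, 8.79 and 8.92 in knockouts. Spry4 was at 7.56, 7.71 and 7.50 in heterozygotes and at 7.79, 7.56 and 7.44 in knockouts. For both genes the knockouts held the highest and the lowest pool, and the log2 fold changes were 0.0048 and 0.0033. Spry3 had a value of 0.17 that rested on knockout replicate 2, at 6.48 against 6.04 to 6.24 in the other pools, and it was 0.07 without that pool. The Spred proteins, related inhibitors, lay between -0.03 and 0.04. Il17rd, a membrane protein that dampens receptor signalling, was at 8.79, 8.87 and 8.66 in heterozygotes and at 8.85, 8.94 and 9.02 in knockouts. Its knockout range began just below the highest heterozygote, and the log2 fold change was 0.17 with an interval from -0.0023 to 0.33 (limma adjusted p = 0.470). It became 0.10 with the Y-linked covariate and 0.21 after quantile normalization. A second probe set of Il17rd gave 0.09.

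**Figure D4:**
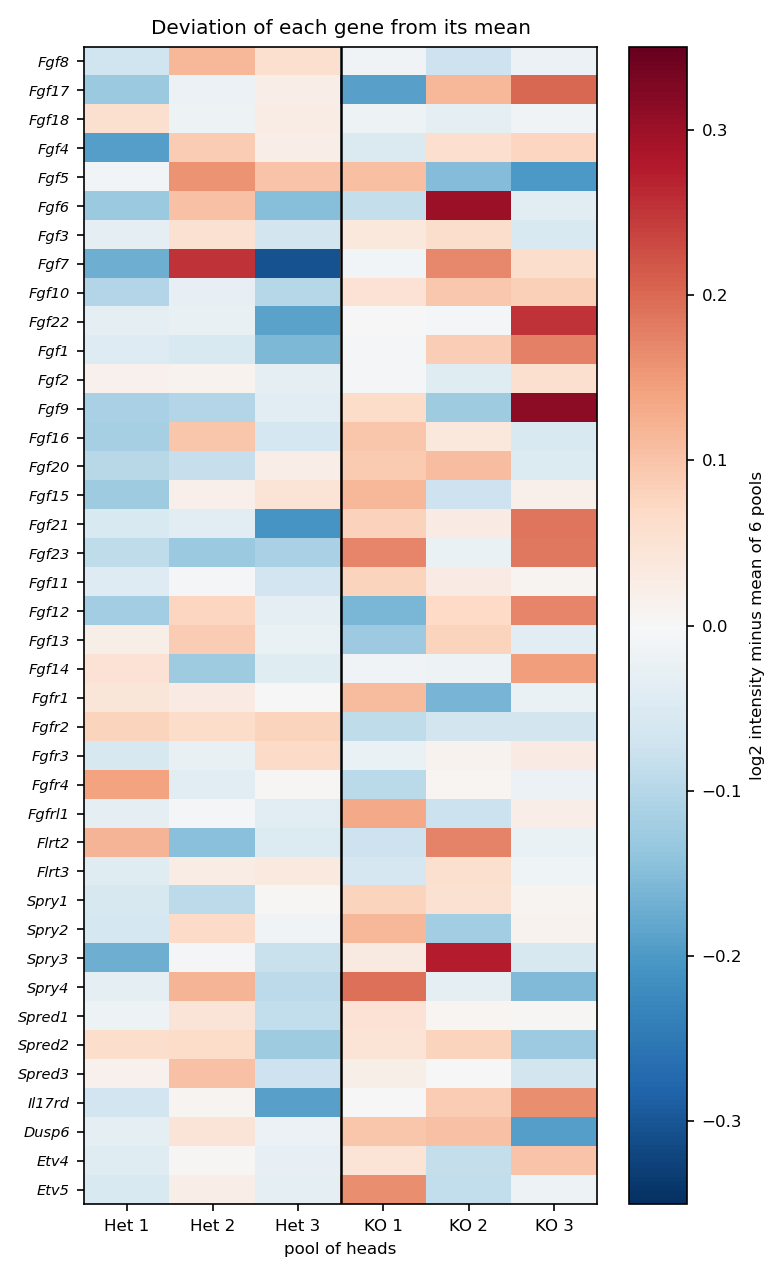
Deviation of each of the 40 genes (rows, by role) from its own mean over the 6 pools (columns), on the log2 scale, with a line between heterozygotes and knockouts. Fgfr2 keeps 1 colour within each genotype, whereas the knockout pools of Dusp6, Spry4 and Etv5 lie on both sides of the mean.

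The pools of 1 genotype differed among themselves in the response genes. Over Spry1, Spry2, Spry4, Dusp6, Etv4, Etv5 and Il17rd, the median deviation from the mean of a gene was 0.10 in knockout replicate 1, -0.03 in knockout replicate 2 and 0.01 in knockout replicate 3, and -0.05, 0.02 and -0.03 in the heterozygote pools. Knockout replicate 1 held the highest value for 4 of these 7 genes, against 18.6% of all probe sets. Over all 11 feedback and response genes the median deviations in the knockout pools were 0.05, 0.0056 and -0.02, and knockout replicate 1 was highest for 5 of 11. Among the secreted ligands, knockout replicate 3 held the highest value for 7 of 18 ligands and heterozygote replicate 3 the lowest for 6 of 18, where over all probe sets these pools did so for 19.2% and 16.8%. A difference between ligands and response genes in this respect was not tested.

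A further 80 genes of the pathway were listed, of which 71 were measured, and limma called none of them (smallest adjusted p = 0.356, for Hesx1). Before adjustment, 2 of the 71 were higher and 3 lower at a p under 0.05, where 5.97% and 4.66% of all probe sets were. The median log2 fold change of the 71 was -0.02, with 28 positive and 43 negative. Of the 71, 49 lay in the brightest tertile, where 2161 of 7263 probe sets were positive. Among 16 receptor partners and adapters, values ran from -0.08 for Shc1, an adapter of receptor kinases, to 0.15 for Kl, a coreceptor of the endocrine FGFs. Among 9 genes of the RAS, RAF, MEK and ERK chain they ran from -0.11 for the scaffold Ksr1 to 0.12 for the ERK-activated kinase Rps6ka3. No gene of these lists reached an unadjusted p under 0.05.
Heparan sulfate genes, which make or carry the cofactor of FGF binding, had 5 positive and 12 negative values of 17. Of these 17, 14 lay in the brightest tertile, where 5102 of 7263 probe sets were below 0. Sdc2, a heparan sulfate core protein, was the lowest at -0.19 (limma adjusted p = 0.421), and Hs3st1, a sulfotransferase, the highest at 0.07. Sdc2 was at 8.21, 8.42 and 8.27 in heterozygotes and at 8.17, 8.07 and 8.08 in knockouts, so that its groups were apart. Among 16 further ERK phosphatases and response genes, Myc was the lowest at -0.14 and Ier3, an early response gene, the highest at 0.19. The factors of the regions that make FGFs had the widest values of all 5 lists. En2, a homeobox gene of the midbrain-hindbrain boundary, had a log2 fold change of 0.37 (limma adjusted p = 0.388), while Hesx1 and Six3 of the anterior forebrain were at -0.39 and -0.17 (adjusted p = 0.356 and 0.457). For each of these 3 genes the groups were apart, as they were for Otx2, Pax8 and Gbx2. Of the 13 genes measured on this list, 3 were apart higher in knockouts and 3 lower, where 8.03% and 9.03% of all probe sets were. Fgf8 and Fgf17, made in these regions, had the values of -0.07 and 0.08 given above, with overlapping groups.

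**Figure D5:**
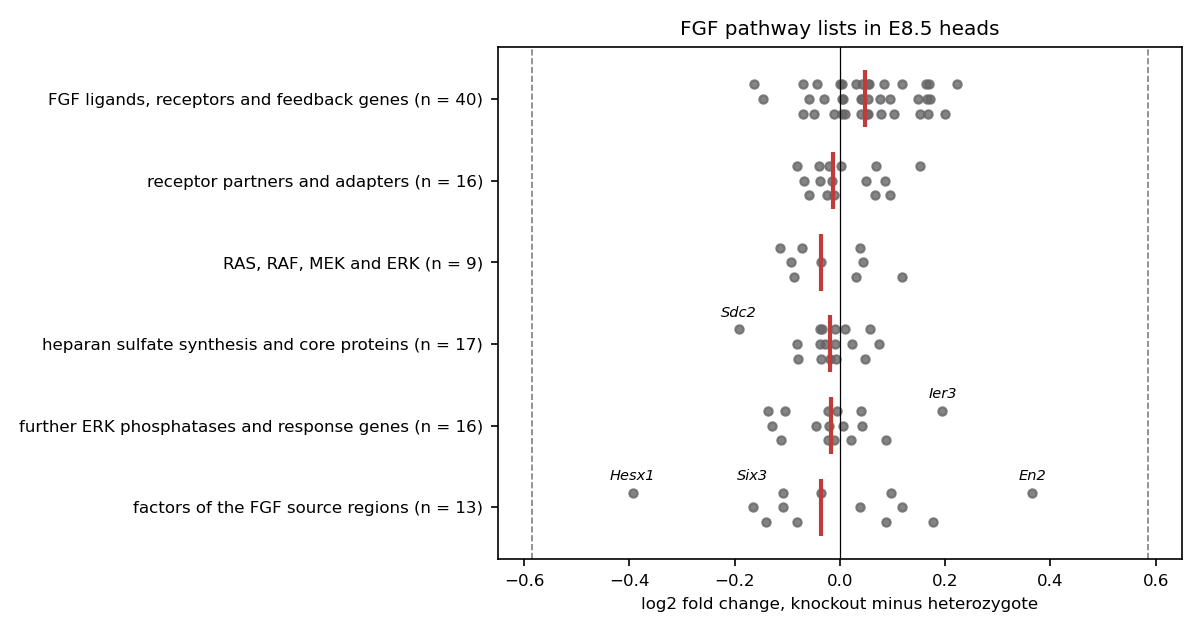
Log2 fold change (knockout minus heterozygote, horizontal axis) of each measured gene on 6 lists (gray points) where red marks the median of a list and the dashed lines stand at 1.5-fold. The FGF ligands, receptors and feedback genes have a median of 0.047, the other lists have medians from -0.04 to -0.01, and Hesx1 and En2 mark the ends.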

How the data were processed

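The deposited intensity values were made by the authors with RMA in Affymetrix Power Tools, per the labels, which corrects background, normalizes between arrays and summarizes probes. Neither a version nor a genome build is given in the sources used here. These values lie on a linear scale, from 2.53 to 11741, and log2 was taken before any comparison. RMA makes arrays alike in overall distribution, so a shift shared by all genes would not be seen. Of 35556 rows, 21789 name exactly 1 gene, 1621 name several and 12146 none, and the first kind was fitted.

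Knockouts and heterozygotes were compared with limma 3.58.1 in R 4.3.3 (lmFit and eBayes, no covariate), with Benjamini-Hochberg adjustment over all 21789 probe sets and a threshold of 0.05. limma stands in for the Gene Array Analyzer of the methods. The median standard error of a log2 fold change was 0.071, for all probe sets and for the FGF genes. The 6 arrays limit the precision, and an exact permutation test of 3 pools against 3 cannot go below 0.1. The paper calls the pools biological replicates. The script was tested on simulated data.

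The members and lists were chosen with earlier results of these data known. Genes given pool by pool were those at an unadjusted p under 0.05 or with groups apart, the 3 highest and 3 lowest, the FGF8 subfamily, Fgf3, Fgf10, Fgf15, the receptors and 7 response genes. Fgf7, Spry3, their pools, the markers of surface ectoderm and the sum of the caudal markers were singled out after their values were seen. In other lists the genes at the ends and those at an unadjusted p under 0.05 were named. Alternatives dropped dim probe sets, tested all rows, averaged the probe sets of a gene, changed the normalization, variance model or array weights, added a replicate block or a Y-linked covariate, used a t-test of equal variance (the methods name no test) or linear ratios, or left out a pool. Promoter windows and gene symbols come from RefSeq, GRCm38.p6. By gene number, 21698 symbols were matched, and 91 stayed as annotated. The labels do not say whether same-numbered pools belong together, and the main fit did not pair them. Deviations of same-numbered pools from their group means correlated at 7.59e-04, 0.106 and -0.013 across probe sets. Such values cannot settle whether the pools were handled together.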

Additional observations from a re-analysis of the deposited data

How the results depend on the processing

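Over 16 settings with a limma fit, no FGF gene was called after adjustment. The smallest adjusted p was 0.283, and the largest log2 fold change was 0.31 in size. The 5 genes at an unadjusted p under 0.05 kept their sign in every fit. Since their groups were apart, leaving out a pool could not change it. Their unadjusted p (limma) stayed under 0.05 in 15 of 15 fits for Fgf23 and in 12 of 16 for Fgf10 and Fgfr2. It did so in 9 of 15 for Fgf21 and in 6 of 15 for Fgf1. Of the 40 genes, 19 changed sign in at least 1 fit, the cause of which was not tested. The median of the FGF genes was 0.010 without dim probe sets (23 genes left), against -0.034 over all probe sets in that fit. With the Y-linked covariate it was -0.0020, against -0.0077 over all probe sets. The median of the 40 genes ran from 0.025 to 0.064 when each pool was left out. At an unadjusted p under 0.05, the FGF genes higher and lower in knockouts ranged from 1 and 0 with the Y-linked covariate (4.74% and 3.35% of all probe sets) to 6 and 2 without knockout replicate 1 (6.35% and 4.94%). They were 2 and 1 with the replicate block (6.06% and 3.95%). Jarid1b was the only called probe set in every limma fit but that without heterozygote replicate 2, where Uty was added, so that the count ran from 1 to 2. A t-test of equal variance, run in place of limma, called 0 probe sets after Benjamini-Hochberg, with 2014 at an unadjusted p under 0.05, and 1 at that threshold with a change of at least 2-fold. With the replicate number as a block, the median was 0.047, 1 probe set was called, and no call changed.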
